A study of Rattus norvegicus with 12 samples.

Results

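Renal cortex of male Sprague-Dawley (Crl:CD(SD)) rats that received bromodichloromethane (BDCM) or corn oil was compared in the experiment whose animals were anaesthetised with isoflurane. These were 6 of the series' 12 samples, found by the anaesthetic named in their titles: 3 rats given BDCM at 200 mg/kg/day and 3 vehicle controls given corn oil, with 1 one-colour Agilent array per rat. Rats were bought at 5 weeks of age and treated for 4 weeks, and the kidneys were collected 24 h after dosing ended. The other 6 samples, again 3 BDCM and 3 corn oil rats, came from an experiment with CO2-O2 anaesthesia, and they enter here to estimate the spread and to set their BDCM effect beside the isoflurane one. All 12 rats had the same basal diet, and every control received the oil vehicle.

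BDCM is a trihalomethane formed when chlorine meets bromide and organic matter in drinking water, and in rodents it injures kidney and liver. Cytochrome P450 CYP2E1 and the theta-class glutathione transferase are the enzymes best known for turning it into reactive products. Most of the renal cortex is proximal tubule, an epithelium that takes back filtered protein, glucose, amino acids and phosphate, burns fatty acids, makes glucose and secretes organic ions. When amino acids run short or proteins misfold, kinases phosphorylate the initiation factor eIF2alpha and the transcription factor ATF4 turns on amino acid synthesis and transport genes, while electrophiles release the transcription factor Nrf2, which turns on detoxification genes.

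By the scanner software's own test, 41529 to 44682 of the 61657 probes that are not controls (67.4 to 72.5%) exceeded background clearly on each of the 6 arrays ("well above background"), and the 75th percentile of the signal lay between 1232 and 1476 intensity units. A level below is the log2 of a probe's signal over that percentile, so that 0 is the 75th percentile of the array and a difference of 1 is 2-fold. Arrays of the same treatment correlated at 0.988 to 0.993 across probes, and arrays of different treatment at 0.971 to 0.984. All 40 proximal tubule markers on the array were well above background in all 6 rats, with summed signals of 4347 to 4573 times the 75th percentile in controls, while markers of pancreas (0.65 to 0.81), adrenal cortex (0.81 to 1.26) and skeletal muscle (0.39 to 0.92) summed to little. Of the libraries, 2 stood apart in some liver transcripts. Albumin (Alb) was at -6.28, -5.72 and -2.97 in control rats 1 to 3 and -0.69, -5.79 and -8.07 in treated rats 1 to 3, so that control rat 3 and treated rat 1 were highest. Their median level over the 40 hepatocyte markers was -4.11 and -3.27, against -4.82 to -4.64 in the other rats. Summed hepatocyte signal did not set them apart (218 and 202, against 166 to 207 in the other rats), and Rbp4 was highest in control rat 2. Control rat 3 and treated rat 1 were left out together in an alternative chosen after the data were seen. Control rats 1 and 2 shared a slide, control rat 3 and treated rats 1 and 2 another, and treated rat 3 was on a slide of its own that was scanned on another day.

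In the isoflurane experiment 8923 of 34218 features (26.1%) passed an adjusted p of 0.05, with 4525 higher (13.2%) and 4398 lower (12.9%) in BDCM-treated rats. Of 12208 features with a gene name 1648 were higher (13.5%) and 1682 lower (13.8%). At least 2-fold differences made up 2197 of the calls (6.42% of features), of which 1289 were higher and 908 lower. In 45.5% of the named genes (22.5% with treated rats higher and 23% lower) and 43.3% of all features the 3 treated rats did not overlap the 3 controls. The count of calls fell to 5446 without treated rat 2, and it lay between 6349 and 8921 without each other rat of this experiment. Without both rats high in liver transcripts it was 6796. Slide as a fixed block, which leaves 1 control for the comparison, gave 2715 calls (1896 higher and 819 lower), and the lists below give their rises and falls in this fit in brackets, in that order, as "by slide block". Within the slide that held control rat 3 and treated rats 1 and 2, the called features all differed in the called direction, against 87.2% of all features, but these arrays also entered the fit that made the calls, so this is no independent check.

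Each treated rat responded, and treated rat 2 most. Over the 6810 features called in the CO2-O2 rats (19.9% of features), whose direction came from other rats although the spread was estimated over all 12, the median deviation from the isoflurane controls in the CO2-O2 direction was 0.50, 0.78 and 0.57 on the log2 scale in treated rats 1, 2 and 3. It was -0.01, 0.03 and -0.02 in control rats 1, 2 and 3, each set against the other controls. In treated rats 96.3 to 97.8% of these features deviated in that direction, and in control rats 44.4 to 58.6%. Over the 1271 of these features that differed at least 2-fold, the medians were 1.11, 1.61 and 1.25 in treated rats 1, 2 and 3.

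**Figure D1:**
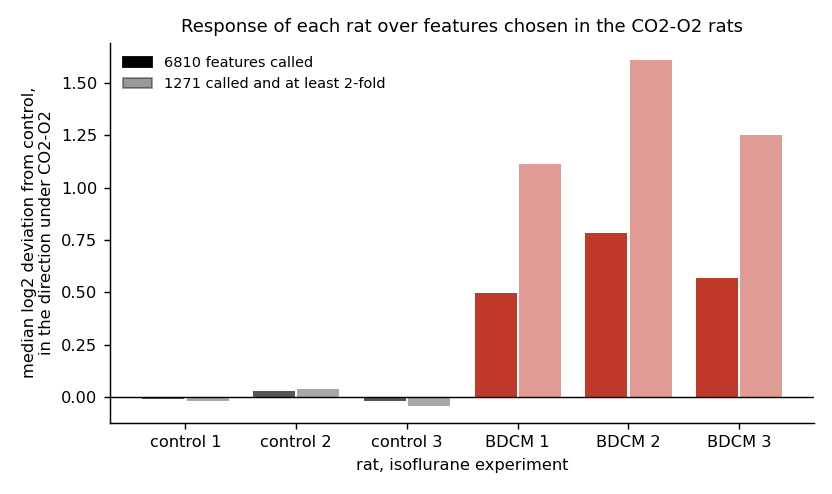
Median log2 deviation of each rat of the isoflurane experiment from the isoflurane controls, in the direction of the CO2-O2 effect, over the 6810 features called there (dark bars) and the 1271 called with at least a 2-fold difference (pale bars). Control rats lie near 0, and treated rat 2 has the highest bar at 0.78 over all called features, above treated rat 3 at 0.57 and treated rat 1 at 0.50.

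Several markers of tubular injury rose. The injury molecule Havcr1 (KIM-1), which damaged proximal tubule cells display, had levels of -5.19, -5.01 and -4.71 in control rats 1 to 3 and -2.22, 0.64 and 0.09 in treated rats 1 to 3. The lowest treated rat lay well above the highest control, and Havcr1 rose 22.2-fold (95% confidence interval 7.39 to 66.8; adjusted p = 0.00157). The membrane glycoprotein Gpnmb had levels of -1.68, -2.56 and -3.11 in control rats 1 to 3 and 2.25, 3.30 and 2.45 in treated rats 1 to 3, again without overlap, and it rose 34.7-fold (95% confidence interval 17.3 to 69.4; adjusted p = 3.35e-05). A secreted phosphoprotein of injured tubules, osteopontin (Spp1), went from 2.46, 2.55 and 2.98 to 4.95, 6.27 and 6.36 in rats 1 to 3 of each group and rose 9.18-fold (95% confidence interval 4.20 to 20.1; adjusted p = 0.00150). The fibrinogen chain Fgb rose 5.61-fold, a call that ended without treated rat 2 (0.0560), and the lectin Lgals3 and the annexin Anxa2 rose by 1.69 and 1.25 on the log2 scale. Of 24 injury markers tested, these 6 rose, the mucosal peptide Tff3 fell by 1.65 and 17 did not pass (1 and 0 by slide block, where Havcr1 had an adjusted p of 0.0946 and Spp1 of 0.0977), with a list median of 0.17 against -0.04 over all features. The call of Tff3 ended without any one rat: control rat 1 (0.0757), control rat 2 (0.0717), control rat 3 (0.0807), treated rat 1 (0.0713), treated rat 2 (0.0970) or treated rat 3 (0.0508), with the adjusted p in brackets. Lipocalin-2 (Lcn2), a marker of acute tubular injury, overlapped between groups at -1.70, -2.80 and -1.71 in control rats 1 to 3 and -2.41, -1.96 and -1.19 in treated rats 1 to 3, and differed by 0.22 ± 0.46 (adjusted p = 0.763). Clu, Timp1, Vcam1 and vimentin (Vim) did not pass either, with differences of -0.12, 0.46, -0.48 and -0.32.

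**Figure D2:**
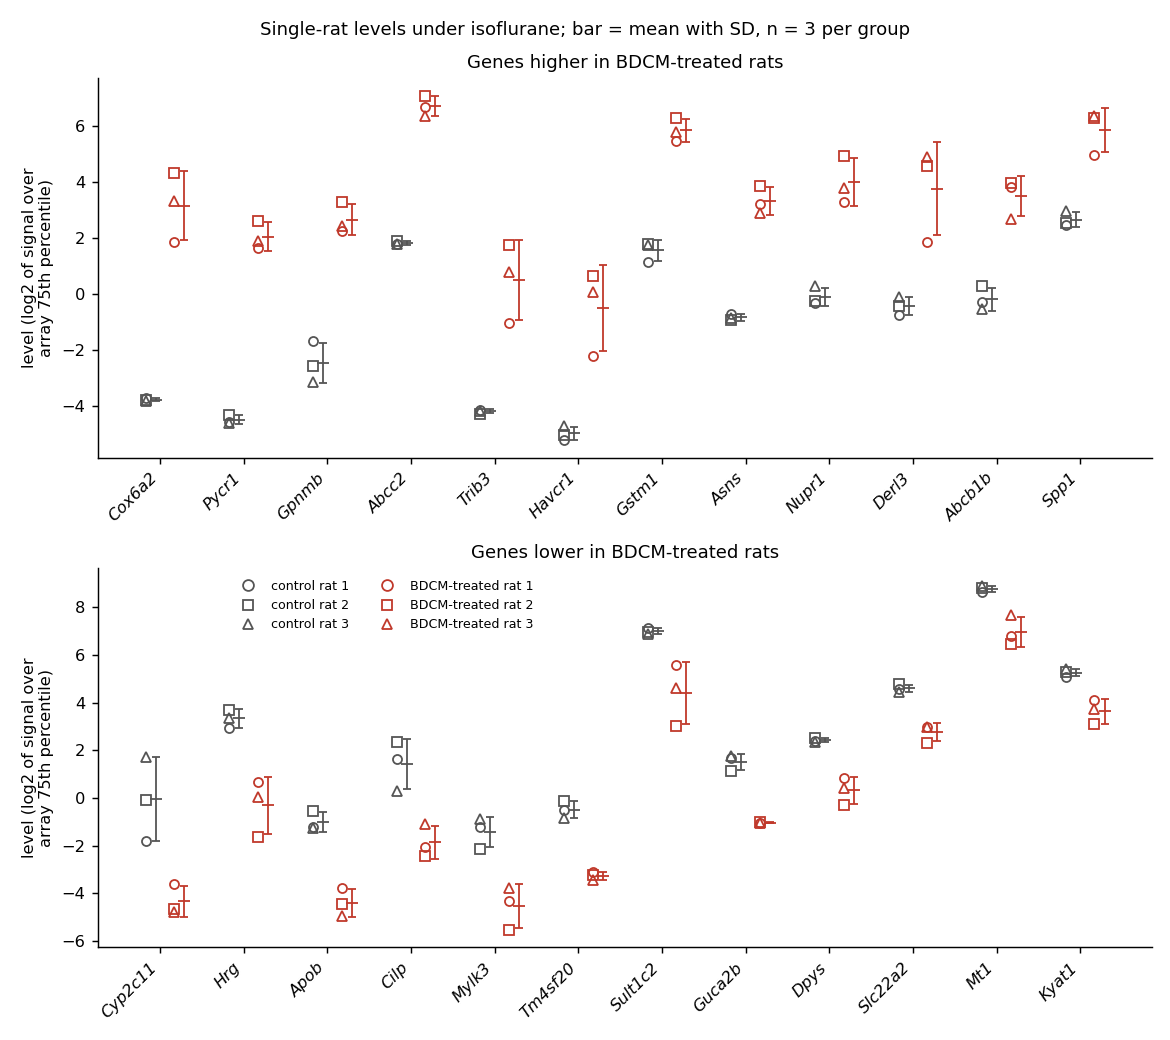
Levels of 12 genes higher (top) and 12 genes lower (bottom) in BDCM-treated rats under isoflurane, on the log2 scale of signal over the array's 75th percentile, with 1 symbol per rat and a bar for the mean with SD (n = 3 per group). The genes shown are ones whose groups do not overlap, and treated rat 2 is the most shifted in Cox6a2 (4.31) and Sult1c2 (3.03).

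Genes of amino acid supply held several of the highest rises. Pycr1, which makes proline, had levels of -4.55, -4.30 and -4.58 in control rats 1 to 3 and 1.63, 2.62 and 1.92 in treated rats 1 to 3. No treated rat came near a control, and Pycr1 rose 92.5-fold (95% confidence interval 60.0 to 143; adjusted p = 3.46e-06). Asparagine synthetase (Asns), a standard ATF4 target, had levels of -0.70, -0.93 and -0.85 in control rats 1 to 3 and 3.23, 3.86 and 2.88 in treated rats 1 to 3 and rose 17.7-fold (95% confidence interval 13.1 to 24.0; adjusted p = 4.83e-06). The mitochondrial folate enzyme Mthfd2 rose 7.29-fold and its partner Mthfd1l 5.64-fold, and Aldh18a1, which starts proline synthesis from glutamate, rose 6.03-fold. Of 24 genes of amino acid, serine and one-carbon synthesis 8 rose and 7 fell (6 and 1 by slide block), so that the list median was -0.07. Glutamine synthetase (Glul) fell by 0.94, argininosuccinate synthase (Ass1) by 0.84, ornithine aminotransferase (Oat) by 0.84 and the creatine enzyme Gamt by 0.81. Phgdh, the first enzyme of serine synthesis, differed by -0.13 (adjusted p = 0.342).

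Genes of the amino acid and endoplasmic reticulum stress response rose with them, and phosphorylation of eIF2alpha was not measured. The pseudokinase Trib3, which restrains ATF4, had levels of -4.12, -4.26 and -4.15 in control rats 1 to 3 and -1.03, 1.76 and 0.81 in treated rats 1 to 3 and rose 25.8-fold (95% confidence interval 9.27 to 71.6; adjusted p = 7.43e-04). Treated rat 1 was the lowest treated rat for Trib3, for Havcr1 and for Derl3. Derl3, part of the machinery that pulls misfolded proteins out of the endoplasmic reticulum, had levels of -0.73, -0.43 and -0.10 in control rats 1 to 3 and 1.85, 4.57 and 4.88 in treated rats 1 to 3 and rose 18.2-fold (95% confidence interval 5.69 to 58.2; adjusted p = 0.00314). The stress cofactor Nupr1 went from -0.30, -0.26 and 0.28 to 3.27, 4.93 and 3.78 and rose 17.0-fold (95% confidence interval 8.60 to 33.6; adjusted p = 1.15e-04). Fgf21, a stress hormone, was well above background in 1 of 3 controls and in all treated rats and was 13.9-fold higher with control signals raised to the background limit of their array (adjusted p = 2.00e-04). In all, 18 of 31 genes of this response rose, among them Stc2 (3.42), Eif4ebp1 (2.70), Gdf15 (2.32) and Atf4 itself (0.73), 1 fell and the median was 0.76 (6 and 0 by slide block, where Trib3 had an adjusted p of 0.0635 and Derl3 of 0.114). The call of Atf4 ended without control rat 1 (0.0874), control rat 2 (0.0665) or control rat 3 (0.0821). The count of rises was 13 without treated rat 2, 24 without treated rat 1 and 14 or 15 without each of the others. The 1 that fell was Xbp1 (-0.23), the transcription factor of the unfolded protein response, and its call ended without control rat 1 (0.0757), control rat 2 (0.142), control rat 3 (0.0942), treated rat 1 (0.116) or treated rat 3 (0.121). The chaperone Hspa5 (BiP) differed by 0.38 (adjusted p = 0.202). Ddit3 (CHOP) had levels of 2.74, 2.92 and 2.67 in control rats 1 to 3 and 3.03, 4.50 and 4.18 in treated rats 1 to 3 and missed the threshold (2.18-fold; adjusted p = 0.0799), although its groups did not overlap.

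Of 19 cytosolic aminoacyl-tRNA synthetases, which charge tRNAs with their amino acids, 16 rose and 0 fell (8 and 0 by slide block), with a median of 0.77. The tryptophan enzyme Wars1 had levels of 3.50, 3.43 and 3.54 in control rats 1 to 3 and 4.93, 5.71 and 4.98 in treated rats 1 to 3 and rose 3.29-fold (95% confidence interval 2.35 to 4.62; adjusted p = 3.69e-04). Its treated rats were all above its controls, as were those of the serine enzyme Sars1, which rose 2.51-fold, the valine enzyme Vars1 (2.22-fold) and the tyrosine enzyme Yars1 (2.00-fold). Tars1, Hars1 and Farsa did not pass, with differences of 0.40, 0.11 and 0.10. Between 14 and 17 of the 19 rose without each rat. The amino acid transporters divided: 5 of 23 rose and 8 fell (2 and 2 by slide block). Risers were the glycine transporter Slc6a9 (11.5-fold), the cystine-glutamate exchanger Slc7a11 (7.83-fold), Slc1a4 (4.92-fold, with 1 of 3 controls well above background and control signals raised to the background limit where below it), the large neutral amino acid carrier Slc7a5 (3.10-fold) and Slc38a3, which takes up glutamine (1.70-fold). Fallers were carriers of the proximal tubule membranes, among them Slc6a18 (-0.88), Slc7a7 (-1.25) and Slc3a1 (-0.77), and 5 fell without control rat 1 and without control rat 2.

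Promoters of these genes are shown because ATF4 is known to act through a composite C/EBP-ATF response element. RefSeq promoter windows of build GRCr8, from 250 bases before to 50 bases after each gene's start, were matched by symbol for 9554 of the 12208 named genes, and searched on both strands for the element's core TGATGNAA, where N is any base. The core was in 905 of 24206 RefSeq promoters (3.74%), in 236 of the 9554 tested genes (2.47%), in 44 of 1327 genes called higher (3.32%) and in 22 of 1300 called lower (1.69%). Among the synthetases 6 of 14 promoters of genes called higher held it (42.9%) and 1 of 3 of the others (33.3%). Among the amino acid and endoplasmic reticulum stress genes 4 of 14 called higher held it (28.6%) and 1 of 12 of the others (8.33%). These matches are letters in a window and no measure of binding, and matches of the 3 motifs searched may share bases. The windows around the match before the start of 5 genes called higher and of the synthetases Aars1 and Mars1 are given 5′ to 3′ on the gene's strand, with the match, on either strand, in capitals:
Pycr1: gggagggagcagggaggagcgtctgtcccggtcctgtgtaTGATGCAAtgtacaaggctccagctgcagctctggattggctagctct
Trib3: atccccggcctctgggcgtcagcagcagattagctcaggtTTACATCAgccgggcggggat
Fgf21: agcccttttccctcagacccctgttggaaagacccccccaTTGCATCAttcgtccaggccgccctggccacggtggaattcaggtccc
Nupr1: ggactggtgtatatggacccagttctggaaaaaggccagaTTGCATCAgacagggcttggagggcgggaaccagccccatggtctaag
Slc1a4: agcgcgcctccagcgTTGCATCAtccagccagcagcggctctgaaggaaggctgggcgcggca
Aars1: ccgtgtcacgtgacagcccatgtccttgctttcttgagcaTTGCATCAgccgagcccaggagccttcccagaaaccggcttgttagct
Mars1: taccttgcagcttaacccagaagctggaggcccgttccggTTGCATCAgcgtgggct
They lie at chr10:106420896-106420983 (minus strand) for Pycr1, chr3:161275534-161275594 (minus strand) for Trib3, chr1:105221472-105221559 (minus strand) for Fgf21, chr1:190645909-190645996 (minus strand) for Nupr1, chr14:98761750-98761812 (minus strand) for Slc1a4, chr19:55908330-55908417 (plus strand) for Aars1 and chr7:65023754-65023810 (minus strand) for Mars1. No match was found for Asns among the windows searched. Only genes with 1 window were searched, so this does not show that the gene lacks the element. The antioxidant response element core TGACNNNGC was in 14.4% of tested genes, 15.9% of those called higher, 2 of the 11 Nrf2 targets called higher with a window (18.2%) and 6 of the 14 others (42.9%). The palindromic E-box CACGTG was in 8.97% of tested genes, 13.6% of those called higher, 7.77% of those called lower, 4 of the 14 synthetases called higher (28.6%) and 5 of the 14 stress genes called higher (35.7%).

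Nrf2 targets rose more often than they fell, with 14 of 34 higher, 3 lower and a median of 0.31 (10 and 0 by slide block). Abcc2 (MRP2), the apical pump that exports conjugates into urine, had levels of 1.81, 1.89 and 1.78 in control rats 1 to 3 and 6.67, 7.08 and 6.37 in treated rats 1 to 3. Its 3 treated rats lay close together and far above the controls, and it rose 29.5-fold (95% confidence interval 22.3 to 39.0; adjusted p = 1.57e-06). The transferase Gstm1, which joins glutathione to electrophiles, had levels of 1.14, 1.80 and 1.74 in control rats 1 to 3 and 5.47, 6.29 and 5.80 in treated rats 1 to 3 and rose 19.6-fold (95% confidence interval 12.0 to 32.1; adjusted p = 1.98e-05). Gstp1 went from 5.43, 5.79 and 5.35 to 8.14, 8.17 and 8.02 and rose 6.01-fold (95% confidence interval 4.93 to 7.32; adjusted p = 5.09e-06). The quinone reductase Nqo1, with -2.86, -1.87 and -3.0 in control rats 1 to 3 and 0.64, 0.74 and -0.59 in treated rats 1 to 3, rose 7.14-fold (95% confidence interval 4.03 to 12.7; adjusted p = 4.45e-04), and the sulfiredoxin Srxn1 rose 4.92-fold. The aldo-keto reductase Akr1b8 rose 12.1-fold, and lost its call without treated rat 2 (0.0559). The 3 that fell were Gclc, the catalytic subunit of glutathione synthesis (-1.27, adjusted p = 0.0172), glutathione reductase Gsr (-0.31) and Osgin1 (-1.11). The call of Gclc ended without control rat 1 (0.0537), control rat 2 (0.0521) or treated rat 2 (0.0717), that of Gsr without control rat 2 (0.136), control rat 3 (0.109), treated rat 1 (0.0574), treated rat 2 (0.0772) or treated rat 3 (0.115) and that of Osgin1 without control rat 1 (0.116), control rat 2 (0.0740), control rat 3 (0.0648), treated rat 2 (0.134) or treated rat 3 (0.0691). In all, 0 or 1 of the list fell without control rats 1, 2 or 3 or treated rat 2. Heme oxygenase Hmox1 had levels of -1.35, 1.19 and -1.46 in control rats 1 to 3 and -1.29, -0.32 and -0.69 in treated rats 1 to 3. Control rat 2 was the highest of all 6, and the groups overlapped (adjusted p = 0.811).

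Glutathione transferases and the enzymes that trim glutathione conjugates to mercapturates went in both directions, with 5 of 32 higher, 10 lower and a median of -0.28 (3 and 4 by slide block). Over all features 13.2% were higher and 12.9% lower, so the share of rises lay near that of all features. All 5 that rose were transferases, 4 of the mu class and Gstp1. The list also holds enzymes that do not form mercapturates, among them the aminoacylases and Kyat1, a beta-lyase that cleaves cysteine conjugates. Kyat1 had levels of 5.09, 5.27 and 5.41 in control rats 1 to 3 and 4.11, 3.09 and 3.71 in treated rats 1 to 3. It fell by 1.62 ± 0.23 on the log2 scale (SE; 3.07-fold lower; adjusted p = 8.03e-04). N-acetyltransferase Nat8, which completes mercapturates, fell by 1.30, a call that ended without control rat 3 (0.0516). The aminoacylases Acy1 and Acy3 fell by 1.20 and 0.99 and the dipeptidase Dpep1 by 1.03. Gamma-glutamyltransferase Ggt1 fell by 0.62 from very even controls of 5.92, 5.90 and 5.91, and its call ended without control rat 1 (0.0591), control rat 2 (0.0561), control rat 3 (0.0570), treated rat 2 (0.0681) or treated rat 3 (0.0561). The theta transferase Gstt1 fell by 0.69 (adjusted p = 0.0358), and its call ended without control rat 1 (0.0750), control rat 3 (0.119), treated rat 1 (0.0653), treated rat 2 (0.121) or treated rat 3 (0.0533). Without control rat 3 or treated rat 2, 6 of the list fell.

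Of 30 cytochrome P450 genes 1 rose and 8 fell (1 and 2 by slide block, where Cyp27b1 had an adjusted p of 0.17), and the count of falls was 4 or 5 without each control rat and 4 without treated rat 2. Cyp2c11, the male-specific P450 of rat liver, had levels of -1.82, -0.07 and 1.70 in control rats 1 to 3 and -3.60, -4.63 and -4.76 in treated rats 1 to 3. The controls spread widely, with control rat 3 highest, but no treated rat overlapped them and the gene fell by 4.27 ± 0.78 on the log2 scale (SE; 19.3-fold lower; adjusted p = 0.00337). Cyp27b1, which makes active vitamin D, fell by 1.45 ± 0.29 on the log2 scale (SE; 2.74-fold lower; adjusted p = 0.00503). Cyp2e1, the P450 that oxidises BDCM, had levels of 5.99, 5.70 and 6.12 in control rats 1 to 3 and 5.96, 4.83 and 5.40 in treated rats 1 to 3, and treated rat 1 lay inside the control range (-0.54 ± 0.30; adjusted p = 0.224). The only riser was Cyp51 (0.69), an enzyme of cholesterol synthesis.

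Efflux pumps were among the genes that rose, and organic ion uptake carriers among those that fell. Of 28 drug and organic ion transporters 7 rose and 13 fell (6 and 3 by slide block, where Slc22a2 had an adjusted p of 0.0832). Besides Abcc2, the P-glycoprotein Abcb1b had levels of -0.28, 0.28 and -0.52 in control rats 1 to 3 and 3.83, 3.98 and 2.68 in treated rats 1 to 3 and rose 12.7-fold (95% confidence interval 7.23 to 22.4; adjusted p = 6.85e-05), and Abcc3, Abcc4 and Abcb1a rose 3.58-, 2.53- and 2.52-fold. The other 2 risers were Slc17a1 and Slc17a3, which rose 2.05- and 2.18-fold. The basolateral cation carrier Slc22a2 (OCT2) had levels of 4.59, 4.76 and 4.45 in control rats 1 to 3 and 2.99, 2.32 and 2.99 in treated rats 1 to 3 and fell by 1.83 ± 0.35 on the log2 scale (SE; 3.57-fold lower; adjusted p = 0.00451). The anion carriers Slc22a6 (OAT1) and Slc22a8 (OAT3) fell by 1.30 and 0.88, and the carnitine carrier Slc22a5 by 1.25. Abcg2, Abcc1 and the urate carrier Slc22a12 did not pass, with differences of -0.40, 0.12 and 0.05.

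**Figure D3:**
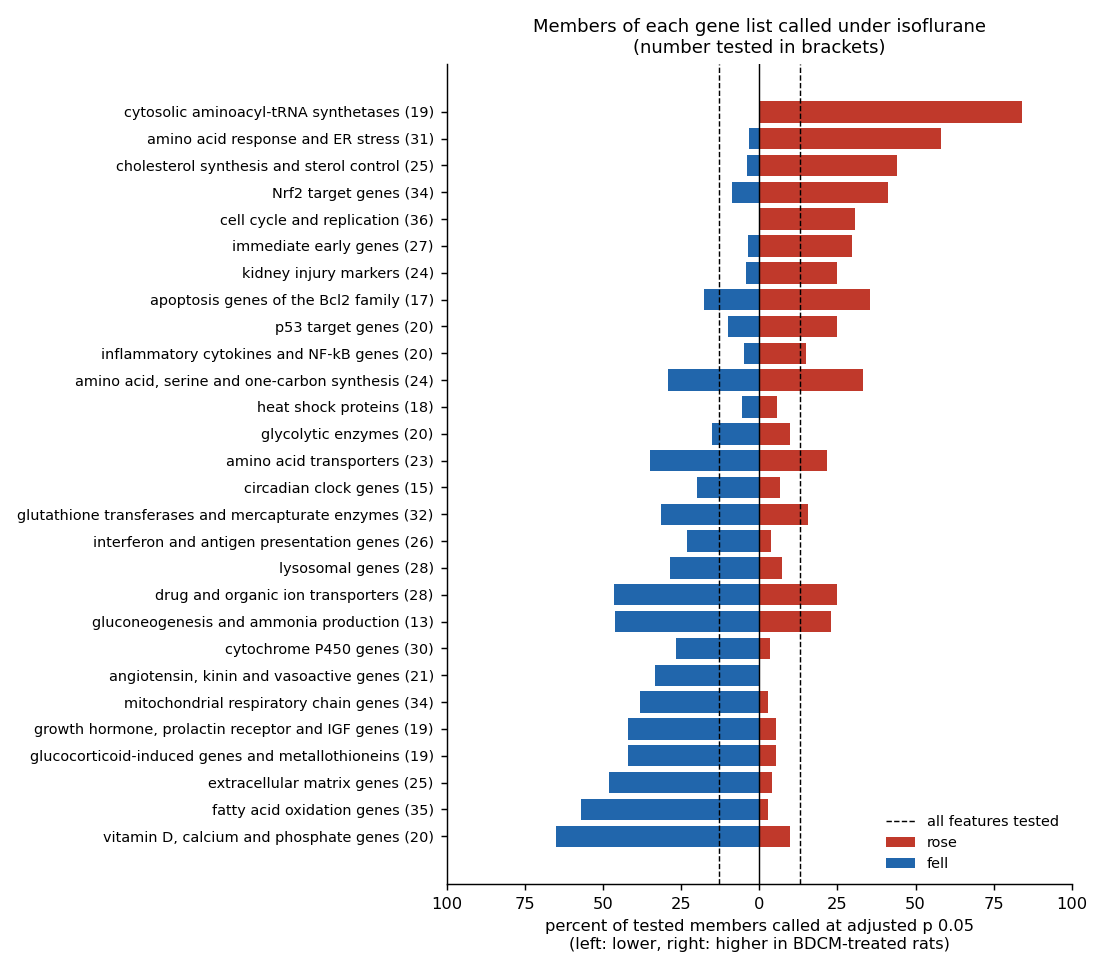
Share of the tested members of 28 gene lists that were called higher (red, to the right) or lower (blue, to the left) in BDCM-treated rats under isoflurane, with the number tested in brackets and dashed lines at 13.2 and 12.9%, the shares over all features. The synthetase list has the longest red bar with 16 of 19, and the vitamin D, calcium and phosphate list the longest blue bar with 13 of 20.

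Proximal tubule markers were lower in BDCM-treated rats. Of 40 tested, 27 fell, 12 did not pass and 1 rose, with a median of -0.69, and 23 to 27 fell without each rat. By slide block 1 rose and 6 fell, and Lrp2 had an adjusted p of 0.12. Whether fewer proximal tubule cells or less of these transcripts per cell lay behind this cannot be told apart in whole cortex. Summed signal over the markers was 4347 to 4573 in controls and 2174 to 3055 in treated rats. The dihydropyrimidinase Dpys had levels of 2.39, 2.51 and 2.36 in control rats 1 to 3 and 0.84, -0.28 and 0.41 in treated rats 1 to 3 and fell by 2.10 ± 0.35 on the log2 scale (SE; 4.28-fold lower; adjusted p = 0.00192). The water channel Aqp1 fell by 1.46, the beta-ureidopropionase Upb1 by 1.65 and the peptidase Mme (neprilysin) by 1.32. Megalin (Lrp2), the receptor that takes up filtered protein, had levels of 6.54, 6.45 and 6.53 in control rats 1 to 3 and 6.17, 5.56 and 5.74 in treated rats 1 to 3, and fell by 0.68 ± 0.13 on the log2 scale (SE; 1.61-fold lower; adjusted p = 0.00446). The sodium-glucose cotransporter Slc5a2 (SGLT2) fell by 0.79, and the kidney androgen-regulated protein Kap by 1.14. The facilitative glucose carrier Slc2a2 (GLUT2) was the exception. Its levels were 3.33, 3.49 and 3.44 in control rats 1 to 3 and 4.52, 4.64 and 4.56 in treated rats 1 to 3, so every treated rat was above every control, and it rose 2.22-fold (95% confidence interval 1.81 to 2.73; adjusted p = 1.86e-04). Slc2a2 was picked out after its values were seen. The transcription factor Hnf4a differed by -0.59 and did not pass.

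**Figure D4:**
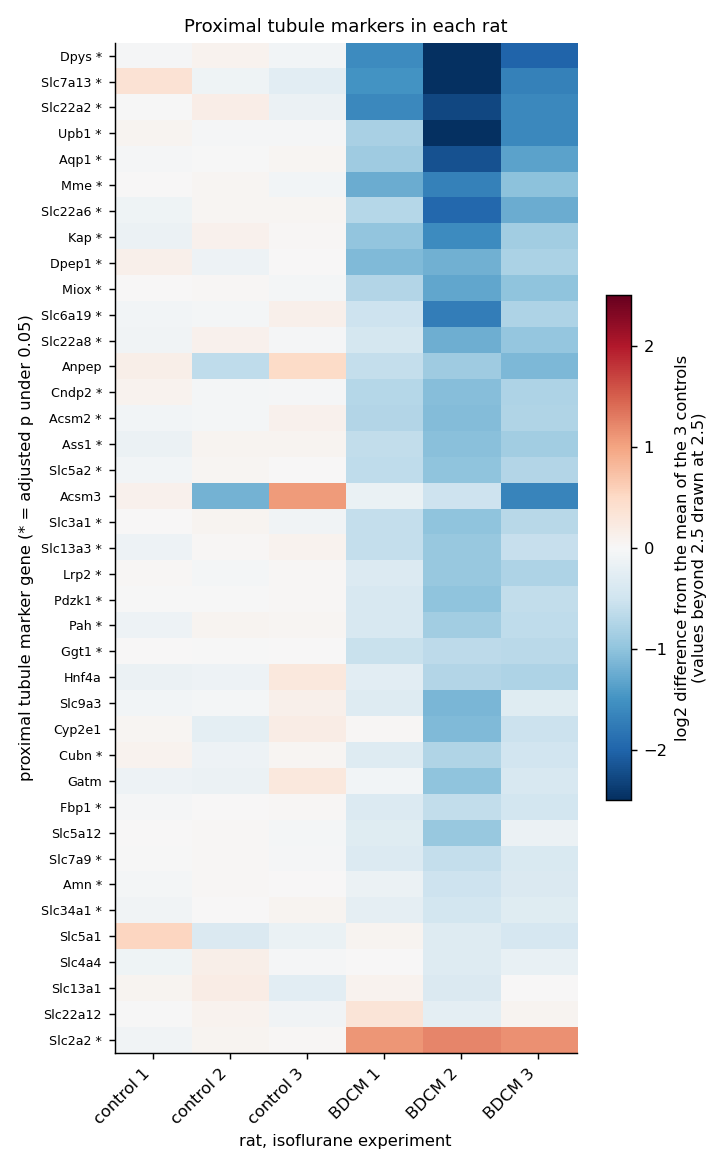
Log2 difference of each of 39 proximal tubule markers (rows, ordered by the treated minus control difference) from the mean of the 3 controls in each rat of the isoflurane experiment (columns), with red for higher and blue for lower. Asterisks mark genes past an adjusted p of 0.05. Treated rat 2 is the lowest of the treated rats in most rows, differences beyond 2.5 share the end colours, and Slc2a2 in the bottom row is red in all 3 treated rats.

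Mitochondrial genes were lower by small steps, with 1 large exception. Of 34 respiratory chain genes 1 rose and 13 fell (1 and 0 by slide block, where Atp5f1b had an adjusted p of 0.0603), the latter by 0.23 to 0.54, with Ndufb3 losing its call without control rat 2 (0.113), control rat 3 (0.0950), treated rat 2 (0.102) or treated rat 3 (0.0596), and 8 fell without treated rat 2 and without treated rat 3. The ATP synthase subunit Atp5f1b had levels of 6.24, 6.34 and 6.43 in control rats 1 to 3 and 5.93, 5.67 and 5.79 in treated rats 1 to 3 and fell by 0.54 ± 0.10 on the log2 scale (SE; 1.46-fold lower; adjusted p = 0.00301). The exception was Cox6a2, the cytochrome oxidase subunit form of heart and skeletal muscle. It had levels of -3.71, -3.79 and -3.81 in control rats 1 to 3 and 1.86, 4.31 and 3.32 in treated rats 1 to 3, and it rose 122-fold (95% confidence interval 45.7 to 326; adjusted p = 4.11e-05). Its liver-type counterpart Cox6a1 differed by -0.09 (adjusted p = 0.319), and the skeletal muscle markers Ckm, Acta1, Tnni2, Tnnt3, Actn3 and Myh4 by -0.60, -0.30, -0.23, -0.25, -0.09 and 0.22, none past the threshold. The 3 probes of Cox6a2 all rose, by 2.15 to 6.93.

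Fatty acid oxidation genes fell, 20 of 35, with 1 higher and a median of -0.45 (1 and 3 by slide block). The count of falls was 13, 9 and 11 without control rats 1, 2 and 3, 9 without treated rat 2 and 13 without both rats high in liver transcripts. Hadh, which carries out the third step of beta-oxidation, had levels of 7.41, 7.48 and 7.38 in control rats 1 to 3 and 6.47, 5.81 and 6.57 in treated rats 1 to 3 and fell by 1.14 ± 0.17 on the log2 scale (SE; 2.20-fold lower; adjusted p = 0.00117). The medium-chain dehydrogenase Acadm fell by 0.58, the thiolase Acaa2 by 0.89 and the electron carrier Etfdh by 0.67. The carnitine transferase Cpt1a differed by 0.00 and the regulator Ppara by -0.96, neither past the threshold, and the thioesterase Acot2 rose by 0.84.

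The 2 forms of phosphoenolpyruvate carboxykinase moved in opposite directions. The mitochondrial form Pck2 had levels of 2.29, 2.23 and 2.53 in control rats 1 to 3 and 4.21, 4.61 and 4.16 in treated rats 1 to 3 and rose 3.93-fold (95% confidence interval 3.19 to 4.86; adjusted p = 1.93e-05). The cytosolic form Pck1, the rate-setting enzyme of glucose production, had levels of 7.55, 7.25 and 7.70 in control rats 1 to 3 and 6.75, 5.28 and 6.73 in treated rats 1 to 3 and fell by 1.25 ± 0.35 on the log2 scale (SE; 2.37-fold lower; adjusted p = 0.0248). The call of Pck1 ended without control rat 1 (0.0668) or control rat 3 (0.0761). Glucose-6-phosphatase (G6pc1) fell by 0.91 and fructose bisphosphatase (Fbp1) by 0.47. Of the 13 genes of glucose and ammonia production 3 rose and 6 fell (2 and 1 by slide block, where Pck1 had an adjusted p of 0.0930). Of 20 glycolytic genes 2 rose and 3 fell (1 and 1 by slide block), and 1 rose and 1 fell without control rat 3. The glycolytic shares lay near those of all features, 13.2% higher and 12.9% lower. Hk2, Ldha and Pkm differed by 0.03, -0.03 and -0.14 and did not pass.

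Replication genes were among those that rose, and the mitotic genes named here missed the threshold. Of 36 cell cycle genes 11 rose and 0 fell (1 fall without control rat 3; 1 and 0 by slide block, where Cdt1 had an adjusted p of 0.0669), with a median of 0.71, and 6 or 7 rose without control rats 2 or 3, without treated rats 2 or 3 and without both rats high in liver transcripts. Cdt1, which loads the replicative helicase, had levels of -4.77, -5.28 and -5.14 in control rats 1 to 3 and -3.74, -3.14 and -3.37 in treated rats 1 to 3 and rose 3.14-fold (95% confidence interval 2.11 to 4.67; adjusted p = 0.00139). The helicase subunits Mcm2, Mcm4 and Mcm6 rose by 1.02, 0.74 and 1.09, of which Mcm6 lost its call without control rat 2 (0.0599) or treated rat 3 (0.0567). The mitotic kinase Cdk1 differed by 0.94 (adjusted p = 0.15), Ccnb1 by 0.96 (0.137), Aurkb by 0.82 (0.197) and the replication clamp Pcna by 0.22 (0.232). The difference between the replication and mitotic genes was not tested.

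Several pro-death genes of the Bcl2 family rose. For the counts in this paragraph, the shares over all features were 13.2% higher and 12.9% lower. Hrk, a BH3-only protein, was well above background in 1 of 3 controls and all treated rats on the probe used, with levels of -6.08, -6.0 and -5.99 in control rats 1 to 3 and -1.26, -0.09 and -1.70 in treated rats 1 to 3. It was 28.3-fold higher with control signals raised to the background limit of their array (adjusted p = 2.53e-05), and 2 of its 3 probes were called. Bbc3 (PUMA) rose 2.68-fold and Bax by 0.51, while the mitophagy receptor Bnip3l fell by 0.37 and the survival genes Bcl2 and Bcl2l1 differed by 0.04 and -0.17. Of 17 family genes 6 rose and 3 fell (2 and 0 by slide block). Of 20 p53 targets 5 rose and 2 fell (1 and 1 by slide block), and the death receptor Fas rose 2.95-fold. Cdkn1a (p21) differed by 0.00 ± 0.14 on its brightest probe, with levels of 4.61, 4.81 and 4.77 in control rats 1 to 3 and 4.80, 4.61 and 4.79 in treated rats 1 to 3, but 2 of its 3 probes rose, by up to 2.77, so its probes disagree. Mdm2 differed by 0.05, and the share of p53 targets that fell lay below that of all features. Among immediate early genes 8 of 27 rose and 1 fell (0 and 0 by slide block, where Myc had an adjusted p of 0.0896), and 4 or 5 rose without each rat except treated rat 1. Myc, a growth factor response gene, had levels of -1.23, -1.5 and -1.23 in control rats 1 to 3 and 0.27, 2.25 and 1.27 in treated rats 1 to 3 and rose 6.0-fold (95% confidence interval 3.14 to 11.5; adjusted p = 0.00173). Atf3 rose 7.14-fold. Fos and Egr1 overlapped between groups and differed by -0.09 ± 0.24 and 0.12 ± 0.33 (adjusted p = 0.830 and 0.816).

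Of 25 genes of cholesterol synthesis and sterol control 11 rose and 1 fell (4 and 0 by slide block), with a median of 0.34, and 7 rose without treated rat 2. Over all features 13.2% were higher and 12.9% lower. The sterol uptake channel Npc1l1, counted among the rises, was not well above background in any control. It was at least 6.78-fold higher in treated rats (adjusted p = 9.09e-05 in limma). Npc1l1 entered the test through a group in which it exceeded background, so its adjusted p is not independent of that filter. Squalene epoxidase Sqle rose by 0.82, Dhcr7, which makes the last step to cholesterol, by 0.84 and the sterol sensor Insig1 by 0.70. No gene of the list fell without control rats 1 or 3 or treated rats 2 or 3. The synthase Hmgcs1 differed by -0.07 and did not pass.

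Of 26 interferon and antigen presentation genes 1 rose and 6 fell, with a median of 0.12 (0 and 0 by slide block, where Cd74 had an adjusted p of 0.0586). The rise was lost without each rat but treated rat 1, without which 2 rose, and 2 to 5 fell without each rat. Of the genes that fell, 4 belong to MHC class II antigen presentation. The invariant chain Cd74 had levels of 5.64, 5.55 and 5.59 in control rats 1 to 3 and 4.05, 3.97 and 4.49 in treated rats 1 to 3 and fell by 1.42 ± 0.26 on the log2 scale (SE; 2.68-fold lower; adjusted p = 0.00328). The class II chain RT1-Da had levels of 3.33, 3.03 and 3.31 in control rats 1 to 3 and 1.92, 1.93 and 2.5 in treated rats 1 to 3. It fell by 1.1 (adjusted p = 0.0130), a call that ended without treated rat 2 (0.0532). RT1-Db1 and RT1-Bb fell by 1.14 and 1.15, and their calls ended without control rat 1 (0.0903), control rat 3 (0.0582), treated rat 1 (0.0624) or treated rat 2 (0.103) for RT1-Db1 and without control rat 1 (0.0700), control rat 2 (0.0987), control rat 3 (0.0741), treated rat 1 (0.0790) or treated rat 2 (0.133) for RT1-Bb. Among interferon-induced genes Mx2 fell by 0.62, while Oasl, Rsad2 and Isg15 differed by 2.29, 1.88 and 1.36 and did not pass. Of 22 leukocyte markers 0 rose and 1, the T cell gene Cd3e, fell by 1.38 with overlapping groups and lost its call without control rat 2 (0.0904), control rat 3 (0.116), treated rat 2 (0.134) or treated rat 3 (0.0894), and the panleukocyte Ptprc and the macrophage genes Cd68 and Csf1r differed by -0.15, 0.04 and -0.11. No leukocyte marker was called by slide block. Summed leukocyte signal was 102 to 136 in controls and 106 to 133 in treated rats, so it overlapped.

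Matrix genes fell, 12 of 25, with 1 higher and a median of -0.53 (1 and 0 by slide block, where Col1a2 had an adjusted p of 0.0549). The count was 5 and 4 without control rats 1 and 3, 7 and 4 without treated rats 1 and 2, and 4 without both rats high in liver transcripts. The collagen Col1a2 had levels of 4.05, 3.57 and 3.72 in control rats 1 to 3 and 2.89, 2.55 and 3.03 in treated rats 1 to 3 and fell by 0.96 ± 0.17 on the log2 scale (SE; 1.94-fold lower; adjusted p = 0.00250). Elastin (Eln) fell by 0.49 and the protease inhibitor Timp3 by 0.68, while Col18a1, a basement membrane collagen, rose by 0.86. Fibronectin (Fn1) and Tgfb1 differed by -0.49 and -0.05 and did not pass. Of 11 stroma and smooth muscle markers 5 fell (1 by slide block), 2 without treated rat 2 and 3 without control rat 1 or control rat 3, and summed stromal signal was 52.9 to 64.7 in controls and 47.4 to 75.1 in treated rats. Among inflammatory genes 3 of 20 rose (15%, near the 13.2% of all features) and 1 fell (2 and 0 by slide block), with 0 falls without control rat 3, treated rat 2 or treated rat 3. The TWEAK receptor Tnfrsf12a had levels of 0.54, 0.65 and 0.33 in control rats 1 to 3 and 2.48, 3.66 and 3.07 in treated rats 1 to 3 and rose 5.91-fold (95% confidence interval 3.57 to 9.79; adjusted p = 3.66e-04). Ccl2, Il1b and Tnf did not pass, with differences of 0.77, 0.57 and 0.16.

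Genes of mineral handling fell, 13 of 20, with 2 higher and a median of -0.58 (1 and 5 by slide block), and 9 to 13 fell without each rat. The calcium-binding protein S100g (calbindin-D9k) had levels of 1.5, 1.85 and 1.94 in control rats 1 to 3 and 0.00, -1.08 and 0.19 in treated rats 1 to 3 and fell by 2.06 ± 0.31 on the log2 scale (SE; 4.16-fold lower; adjusted p = 0.00113). The parathyroid hormone receptor Pth1r fell by 1.1, the phosphate carrier Slc34a3 by 1.19 and klotho (Kl), co-receptor of the phosphate hormone FGF23, by 0.71. The ubiquitous phosphate carriers Slc20a1 and Slc20a2 rose by 0.53 and 0.63. The vitamin D receptor Vdr differed by -0.40 and did not pass.

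Hormone-related lists were also lower, set against 13.2% of all features higher and 12.9% lower. The metallothionein Mt1, which binds zinc and responds to glucocorticoids, had levels of 8.64, 8.81 and 8.89 in control rats 1 to 3 and 6.80, 6.44 and 7.66 in treated rats 1 to 3 and fell by 1.81 ± 0.29 on the log2 scale (SE; 3.51-fold lower; adjusted p = 0.00169). Mt2A fell by 1.34, the glucocorticoid target Per1 by 1.23, and Fkbp5 differed by -1.11 without passing. Of 19 such genes 8 fell and 1 rose (0 and 3 by slide block), and 4 fell without treated rat 2 and 5 without control rat 3. Of 21 vasoactive genes 7 fell and 0 rose (0 and 2 by slide block), with angiotensinogen (Agt) lower by 1.31 and its receptor Agtr1a by 0.77. The call of Agt ended without control rat 1 (0.0623), control rat 2 (0.0581) or treated rat 1 (0.0589), and 4 of the list fell without control rat 1. Of 19 growth hormone and IGF genes 8 fell and 1 rose (0 and 3 by slide block), with 4 falls without treated rat 2 and 5 without control rat 2. Igfbp5 had levels of 0.32, 0.32 and 0.18 in control rats 1 to 3 and -0.60, -1.12 and -0.88 in treated rats 1 to 3 and fell by 1.14 ± 0.13 on the log2 scale (SE; 2.20-fold lower; adjusted p = 1.42e-04), and Igfbp4 fell by 1.52, while Igfbp1, an ATF4 target, rose 3.10-fold. Of 15 clock genes 1 rose and 3 fell (0 and 0 by slide block), with 1 fall without control rats 2 or 3 or treated rat 2, and of 18 heat shock genes 1 rose and 1 fell (1 and 1 by slide block). Without both rats high in liver transcripts 0 clock genes rose and 0 fell. The heat shock shares lay below those of all features, 13.2% higher and 12.9% lower. The mitochondrial chaperone Hspa9 rose by 0.81, and inducible Hspa1a differed by 0.16. Of 28 lysosomal genes 2 rose, cathepsin L (Ctsl) by 0.63 and Gaa by 0.47, and 8 fell, among them cathepsins Ctsa, Ctsb and Ctsh by 0.48, 0.48 and 0.49 (1 and 1 by slide block).

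Other large differences came from genes outside these lists. The retinol-binding protein receptor Stra6l went from -4.62, -4.23 and -5.95 to -0.48, 0.96 and -0.32 in rats 1 to 3 of each group and rose 31.8-fold (95% confidence interval 14.4 to 70.1; adjusted p = 8.19e-05). The fucosyltransferase Fut1 and the receptor tyrosine kinase Ret were not well above background in any control on the probe used. They were at least 21.8- and 25.0-fold higher in treated rats (adjusted p = 7.26e-05 and 0.00312 in limma). Fut1 and Ret entered the test through a group in which they exceeded background, so their adjusted p is not independent of that filter. Apolipoprotein B (Apob), the lipoprotein scaffold, had levels of -1.19, -0.54 and -1.27 in control rats 1 to 3 and -3.78, -4.46 and -4.97 in treated rats 1 to 3 and fell by 3.40 ± 0.37 on the log2 scale (SE; 10.6-fold lower; adjusted p = 1.14e-04). Its 5 probes fell by 0.82 to 3.82, 4 of them past the threshold. Histidine-rich glycoprotein Hrg had levels of 2.94, 3.71 and 3.37 in control rats 1 to 3 and 0.67, -1.64 and 0.03 in treated rats 1 to 3 and fell by 3.65 ± 0.65 on the log2 scale (SE; 12.6-fold lower; adjusted p = 0.00293), the sulfotransferase Sult1c2 fell by 2.57 and the matrix protein Cilp by 3.27. Uroguanylin (Guca2b), a peptide that promotes salt excretion, had nearly equal treated rats at -1.03, -1.02 and -1.07 against controls at 1.66, 1.13 and 1.75, and fell by 2.55 ± 0.22 on the log2 scale (SE; 5.86-fold lower; adjusted p = 3.24e-05). The adjusted p of Hrg was 0.0714 by slide block.

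Markers of the other nephron segments and of vessels fell less often than those of the proximal tubule, a difference in share that was not tested. Their shares of falls lay above the 12.9% of all features that were lower, and 13.2% of all features were higher. Of 8 thick ascending limb markers 2 fell (1 without each control rat, treated rat 2 or treated rat 3), and uromodulin (Umod), the main urinary protein, had levels of 8.78, 8.71 and 8.56 in control rats 1 to 3 and 8.46, 8.51 and 8.52 in treated rats 1 to 3 (adjusted p = 0.113). Distal convoluted and connecting tubule markers numbered 8, of which 3 fell, among them the calcium exchanger Slc8a1 by 0.83. Of 15 collecting duct markers 5 fell and 1 rose, with 2 falls without control rat 2 or treated rat 2 and 3 without treated rat 3. Pendrin (Slc26a4), the chloride-bicarbonate exchanger, fell by 1.11, while the water channel Aqp2 differed by -0.30. Of 12 podocyte markers 6 fell, among them the transcription factor Wt1 by 0.62, and the adaptor Cd2ap rose by 0.87. Podocyte falls numbered 3 without each control rat and 2 without treated rat 2. Of 11 endothelial markers 4 fell, with Pecam1 and Kdr at -0.13 and -0.27 and not past the threshold, and the falls numbered 1 without control rats 2 or 3 or treated rat 2. Erythroid transcripts were lower too: the alpha globin Hba-a1 had levels of 8.34, 8.06 and 7.91 in control rats 1 to 3 and 7.78, 7.0 and 6.70 in treated rats 1 to 3 and fell by 0.94 (adjusted p = 0.0184), a call that ended without control rat 1 (0.0660), treated rat 2 (0.0693) or treated rat 3 (0.0540). Of 7 erythroid markers 4 fell and 1 rose, with 0 falls without control rat 1 or treated rat 2, 1 without treated rat 3 and 2 without control rat 2. The 1 that rose, Slc4a1 (by 0.47), is on the collecting duct list too and is the 1 riser there. Its call ended without each rat except treated rat 2. Summed signals of the thick ascending limb did not overlap between groups (619 to 659 in controls, 545 to 567 in treated rats). Nor did those of podocytes (54.4 to 56.9 and 36.3 to 44.4) or endothelium (82.2 to 87.5 and 60.2 to 75.8). The collecting duct sums (313 to 350 and 219 to 297) did not overlap either. Bright markers weigh most in a sum, and Umod was the brightest thick ascending limb marker on the array. The groups also did not overlap in 43.3% of all features. Of 35 hepatocyte markers 3 rose and 8 fell (1 and 3 by slide block), with 1 rise without treated rat 2. By slide block the falls numbered 1 for the thick ascending limb, 2 for the distal tubule, 2 for podocytes and 0 for collecting duct, endothelium and erythroid cells. Summed erythroid signal was 486 to 677 in controls and 214 to 455 in treated rats, and its part in the other results was not tested.

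The BDCM effect under isoflurane was set beside that under CO2-O2, where 6810 features were called (10% of features higher and 9.89% lower). Of the 34218 features 0 passed the test of the difference between the 2 effects in limma (lowest adjusted p = 0.537), and 1731 (5.06%) had an unadjusted p under 0.05. When slide was a fixed block 11 features passed, and 20 when scan day was. Called in both with the same direction were 5303 features, which are 59.4% of the isoflurane calls and 77.9% of the CO2-O2 calls. Anaesthetic, experiment, slide and scan day changed together, so these cannot be told apart. Cox6a2 differed by 6.93 under isoflurane and 6.6 under CO2-O2, Pycr1 by 6.53 and 6.18, and Havcr1 by 4.47 and 4.90. For the last of these the difference was -0.42 with a 95% confidence interval of -2.67 to 1.83, which spans differences of several fold in either direction. Apob fell by 3.40 under isoflurane and 1.14 under CO2-O2 (unadjusted p of the difference 0.00139; interval -3.42 to -1.11). The class II genes Cd74, RT1-Da and RT1-Db1 differed by -1.42, -1.1 and -1.14 under isoflurane and by -0.68, -0.07 and -0.03 under CO2-O2, with unadjusted p of 0.0686, 0.0195 and 0.0347 for the difference. Col1a2 differed by -0.96 and -0.27 (unadjusted p 0.0148). None of these differences passed adjustment.

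**Figure D5:**
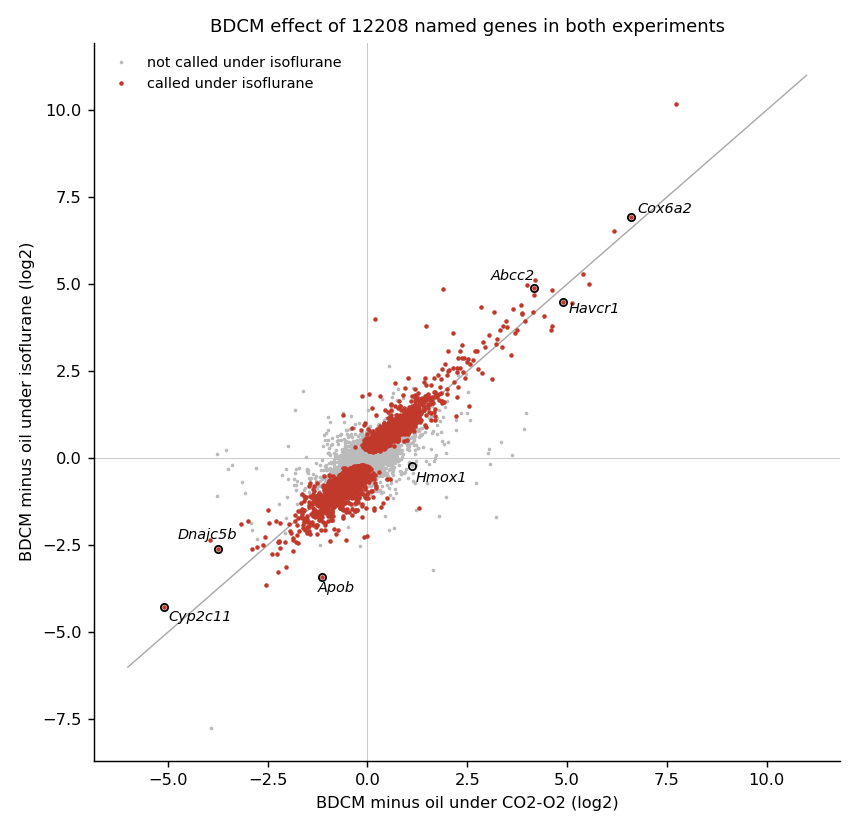
BDCM minus oil difference of 12208 named genes under CO2-O2 (horizontal) and under isoflurane (vertical), in log2 units, with genes called under isoflurane in red and the line of equal effects in grey. Most red points lie along the line; Apob at -1.14 and -3.40 lies away from it, differences from controls below background are plotted as measured and not as bounds, and no gene passed the test of the difference.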

How the data were processed

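The deposited scanner files, which the submitters' processing notes credit to version 10.7 of Agilent Feature Extraction, hold spot intensity values (processed, median and background signal, background-subtracted within the array per the file headers), and the deposited value table holds the ratio of processed signal to the array's 75th percentile, which matched the scanner files within 1% for each isoflurane rat. Levels were log2 of the deposited processed intensity over the 75th percentile of 61657 non-control probes. Probes were named through RefSeq accessions (27460 probes had 1 symbol and 34113 none), and the brightest probe stood for a gene. Spots flagged as outliers were left out of the fit (54 missing values among tested features).

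Features that exceeded background on every array of 1 or more groups (34218, of which 12208 were named) were fitted in limma 3.58.1 (R 4.3.3) on all 12 arrays with 4 group means, and p-values were adjusted over all features (Benjamini-Hochberg, threshold 0.05). The code was tested on simulated data. The 3 rats of a group are biological replicates per the series' design text. The p-values measure only spread between rats within groups, pooled over the 4 groups of all 12 arrays and shared across features by limma.

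The text names the 12 highest and 12 lowest called genes without overlap, up to 4 called members of each list and a fixed set, 162 genes in all, some of which are not reported here. Other list members are examples chosen after their values were seen. The members and lists were chosen with earlier results of these data known. "At least" folds compare treated signals with the background limit of the control arrays. Genes given so, and those with control signals raised to the background limit, entered the test through a group in which they exceeded background. Their adjusted p is therefore not independent of that filter. The comparison between experiments shares no rats. Arrays limit precision by their number. Alternatives varied the scaling, background correction, filter, probe choice, model, slide, scan day and rats.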

Additional observations from a re-analysis of the deposited data

How the results depend on the processing

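Of 3866 single gene values recomputed under alternatives, 3347 kept direction and side of the threshold, 489 lost the call, 3 gained it and 27 changed sign. Of 1892 gene list counts so recomputed, 1570 stayed within 1.5 times the main count and 322 moved further. The 27 values that changed sign belong to genes that did not pass. In the next count "every alternative" means every refit, without the stricter thresholds of adjusted p and fold. Of 152 called genes among the 162 named, 58 were called in every alternative, 52 lost the call without 1 rat (46 without treated rat 2) and 89 with slide as a fixed block. The isoflurane count of 8923 was 2715 with slide as a fixed block, 4222 at an adjusted p of 0.01, 2197 with a 2-fold minimum and 5446 to 8921 without each rat. It lay between 6592 and 11196 under the other alternatives. The CO2-O2 count of 6810 was 3167 when slide was the block, 4104 when scan day was, 2850 at an adjusted p of 0.01, 1271 with a 2-fold minimum and 3901 to 7083 without each rat. Calls of the difference between experiments numbered 11 when slide was the block, 20 when scan day was, and 0 to 1 without each rat. The mean response of treated rats, 0.62, was 1.32 over features that differed at least 2-fold. The replicate block gave 6623 isoflurane calls. Deviations from the group means correlated at -0.02, 0.05 and -0.01 between same-numbered controls and treated rats, and at -0.03 to 0.05 between the others. These values show no pairing by replicate number, but they cannot tell whether the rats were paired by design. The cause of these changes was not tested.

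Values of the genes that changed sign follow, as log2 differences. With slide as a fixed block they were -0.48 for Lcn2, 0.65 for Hmox1, -0.0566 for Cdkn1a, 0.48 for Fos and -0.27 for Alb. With scan day they were -0.11 for Lcn2 and -0.0214 for Cdkn1a. Cdkn1a was -0.12 with quantile normalization, -0.0271 with normexp and -0.0134 without both rats high in liver transcripts, where Hspa1a was -0.12 and Alb -0.93. Without single rats the differences ranged from -0.15 to 0.50 for Lcn2, -0.69 to 0.64 for Hmox1, -0.0552 to 0.0639 for Cdkn1a, -0.40 to 0.0775 for Fos, -0.0592 to 0.26 for Egr1, -0.0566 to 0.37 for Hspa1a and -1.94 to 1.75 for Alb.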

Other observations

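The interleukin receptor chain Il12rb1 was picked out after its values were seen. Il12rb1 was not well above background in any isoflurane control and was at least 4.67-fold higher in treated rats (adjusted p = 1.17e-04 in limma). It entered the test through a group in which it exceeded background, so this adjusted p is not independent of that filter. The test of the difference from the CO2-O2 effect gave an unadjusted p of 9.44e-05 and an adjusted p of 0.537, which did not pass.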
